A study of Homo sapiens with 50 samples.

Results

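Cytosolic ribosomal proteins are the protein parts of the ribosome that translates nuclear-encoded messenger RNA. Their genes were taken by symbol: RPL or RPS, digits and an optional final A, X or L, together with RPLP0, RPLP1, RPLP2 and RPSA. The rule found 83 of the 57905 genes in the deposited tables, and no symbol was repeated. They comprise 43 large-subunit genes, 31 small-subunit genes including RPSA, 3 genes of the ribosomal stalk (RPLP0, RPLP1, RPLP2) and 6 copies whose symbols end in L, among them RPL3L, RPL10L, RPL39L, RPS10L and RPS27L.

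The 50 RNA-seq libraries come from wild-type H1 cells, a human embryonic stem cell line, and fall into 25 groups of 2. Cultures taken through cardiac differentiation were sampled on days 3, 5, 7 and 11 under 6 conditions: HCl, an acid; NaHCO3, a base; IWP2 with NaHCO3 and 2-DG, an inhibitor of glycolysis; IWP2 with NaHCO3; IWP2, an inhibitor of Wnt ligand secretion; and a differentiation control, here called Control. Undifferentiated cells of day 0 formed the remaining group. The labels give no dose, no time of addition and no measured pH, and all libraries come from a single cell line. Nothing in the labels says that the 2 libraries of a group came from separate cultures, so each p-value rests on a spread that may be technical.

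Each ribosome holds 1 copy of nearly every ribosomal protein, so cells make these proteins in balanced amounts from many unlinked genes. Their messenger RNAs are short and abundant. Most begin with a run of pyrimidines at the first base, the TOP motif, through which the mTOR pathway and the protein LARP1 control their translation and stability. Cells that grow fast make more ribosomes, and several copies replace their parent protein in particular tissues: RPL3L replaces RPL3 in heart and skeletal muscle, and RPL10L and RPL39L serve in male germ cells.

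The first bases of these genes carry the shared feature, so 30-base windows around the annotated start are shown for genes that the results below turn on. They run 5′ to 3′ on the strand of the gene, from RefSeq on GRCh38.p14, with 15 bases before the start, and capitals mark a C followed by at least 4 C or T that begins within 2 bases of it. RPLP0 lies at chr12:120201097-120201126 on the minus strand, RPS12 at chr6:132814554-132814583 on the plus strand, RPL13A at chr19:49487593-49487622 on the plus strand, RPL39 at chrX:119791616-119791645 on the minus strand, RPS27 at chr1:153990747-153990776 on the plus strand and RPS27L at chr15:63157463-63157492 on the minus strand.
RPLP0: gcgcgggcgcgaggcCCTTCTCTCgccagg
RPS12: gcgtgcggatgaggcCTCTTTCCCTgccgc
RPL13A: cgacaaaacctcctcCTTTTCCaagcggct
RPL39: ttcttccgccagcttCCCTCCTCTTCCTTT
RPS27: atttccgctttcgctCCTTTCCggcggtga
RPS27L: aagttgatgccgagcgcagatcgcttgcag
RPS27 starts in such a run and its copy RPS27L does not. Of the 64 genes of the group that RefSeq promoters matched by symbol, 50 (78.1%) had the run at an annotated start, against 3507 of 27241 other genes (12.9%). The letters CTTTCC, read on both strands of this 30-base window, were found in 20 of the 64 (31.2%) and in 3.38% of the other genes. The letters CCGGAAG, read on both strands of the 250 bases before the start, were found in 22 (34.4%) and in 10.2%. The 14 genes without the run were RPL4, RPL6, RPL9, RPL10A, RPL10L, RPL15, RPL17, RPL27, RPS4X, RPS7, RPS15, RPS26, RPS27L and RPS29. A run further from the annotated start was not counted, so the list does not show that these genes lack a TOP motif.

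Libraries held between 14090004 and 22796553 counts, and the 95% Wilson interval on a library's share of counts in these genes reached at most 0.0159 percentage points to either side, for counting error only. In 2 groups the libraries disagreed on these genes. In the IWP2+NaHCO3+2-DG group of day 3 the genes took 13.5% of counts in replicate 1 and 7.67% in replicate 2. In the NaHCO3 group of day 7 they took 2.85% in replicate 1 and 4.33% in replicate 2. The disagreement in the 2-DG group of day 3 also ran with transcript length: the median log2 ratio of replicate 1 to replicate 2 was 0.88 for the ribosomal protein genes, 0.12 for other genes with transcripts under 1000 bases and −0.78 for those of 4000 bases or more. In the NaHCO3 group of day 7 the same medians were −0.79, −0.07 and 0.11. Ranges over groups and tested changes between 2 groups that rest on these libraries are given with and without them below. Interactions that rest on them are marked as such.

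Of the 83 genes, 80 passed the filter for testing in each table, which asked for at least 1 FPKM (fragments per kilobase of exon, scaled to the library total) in at least 2 libraries. RPL10L had 0 counts in all 50 libraries, which allows at most 0.213 CPM in the shallowest of them (a floor of 3 counts). RPL3L did not exceed 0.88 FPKM, reached in HCl replicate 1 of day 5, and stood between 0 and 0.06 FPKM in the 4 groups with the highest sums of cardiac muscle markers, which were IWP2 of day 7 and HCl, IWP2+NaHCO3+2-DG and IWP2 of day 11. Averaged over all libraries, 61 of the 83 genes exceeded 100 FPKM, 13 lay between 10 and 100 FPKM and 9 were below 10 FPKM, with a median of 185.2 FPKM. Among the highest were the large-subunit gene RPL13A, at 859.6 FPKM, and the small-subunit genes RPS2 and RPS12, at 850.6 and 837.9 FPKM. Low levels of RPL9, RPL21, RPL36A, RPL39 and RPS26 are uncertain, since near-identical copies can share their reads and FPKM here divides by the union of all annotated exons.

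The share of all counts in the 83 genes fell into a narrow range within most groups and a wide one between them. On day 3 it averaged 8.72% with HCl, 7.14% with NaHCO3, 10.6% with IWP2+NaHCO3+2-DG, 7.24% with IWP2+NaHCO3, 9.18% with IWP2 and 7.96% in Control. On day 5 the shares were lower, at 6.69% with HCl, 5.54% with NaHCO3, 5.26% with IWP2+NaHCO3+2-DG, 5.18% with IWP2+NaHCO3, 6.65% with IWP2 and 6.62% in Control. On day 7 they were 5.28% with HCl, 3.59% with NaHCO3, 3.74% with IWP2+NaHCO3+2-DG, 3.89% with IWP2+NaHCO3, 3.65% with IWP2 and 4.96% in Control, against 5.88% in undifferentiated cells.
On day 11 the conditions lay furthest apart. The libraries had 2.99% and 2.83% with HCl, 7.94% and 8.02% with NaHCO3, 3.63% and 3.45% with IWP2+NaHCO3+2-DG, 6.09% and 6.21% with IWP2+NaHCO3, 4% and 3.65% with IWP2, and 4.12% and 4.35% in Control. NaHCO3 and IWP2+NaHCO3 stood above all other groups of that day, and HCl stood below them. Mitochondrially encoded genes took 9.81% of counts with HCl, 2.47% with NaHCO3, 9.19% with IWP2+NaHCO3+2-DG, 4.07% with IWP2+NaHCO3, 7.69% with IWP2 and 3.88% in Control. Leaving those counts out gave a ratio of shares between HCl and Control of 0.732, against 0.687 with them. As group means, counts in small-subunit genes were between 0.618 (HCl, day 11) and 0.721 (NaHCO3, day 11) of those in large-subunit and stalk genes together.

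**Figure D1:**
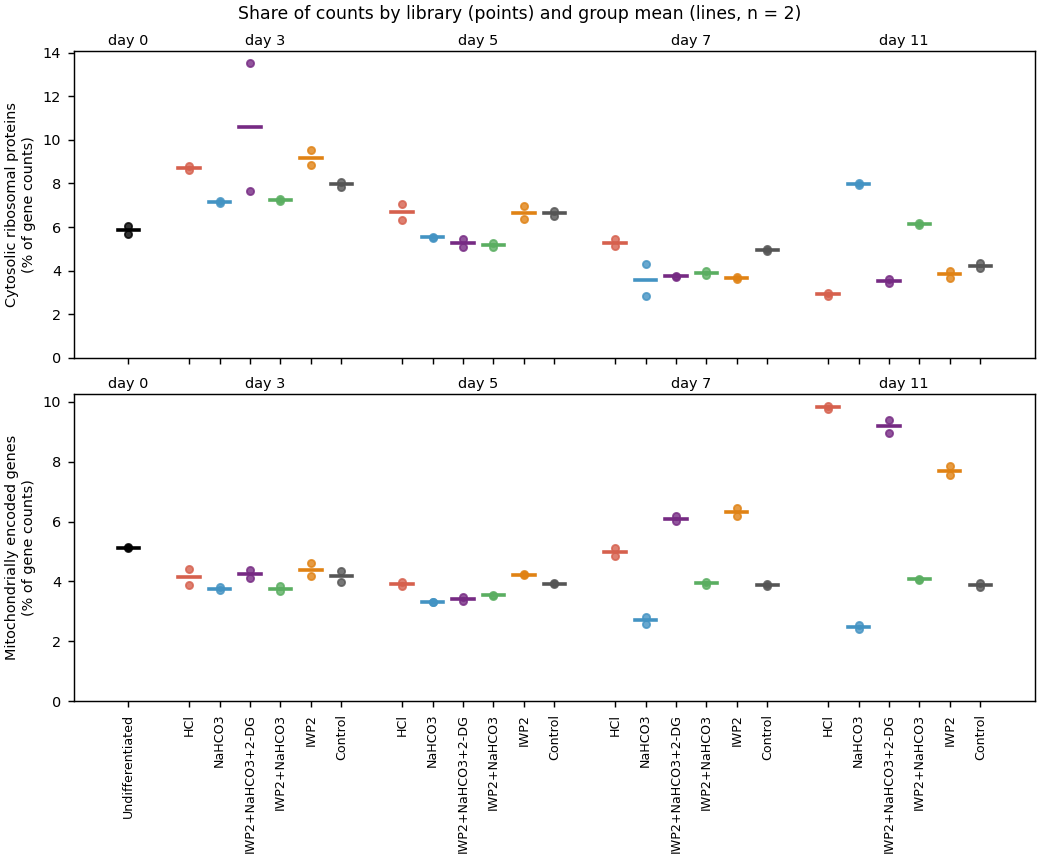
Share of all counts (percent, y axis) that fell in the 83 cytosolic ribosomal protein genes (upper panel) and in mitochondrially encoded genes (lower panel), by treatment within each day (x axis); points are libraries and bars are means of 2. In the upper panel on day 11 the NaHCO3 libraries stand at 7.94% and 8.02% and the HCl libraries at 2.99% and 2.83%, and on day 3 the IWP2+NaHCO3+2-DG libraries stand apart at 13.5% and 7.67%.

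Most single genes had their extremes in the same few groups. Among the 77 genes that are not copies, 47 had their lowest group mean with HCl on day 11 and 25 with NaHCO3 on day 7, while 50 had their highest with IWP2+NaHCO3+2-DG on day 3 and 19 with NaHCO3 on day 11. The highest group mean was a median of 3.72 times the lowest. RPLP2, RPS12 and RPS16 were among those with the widest ranges, at 9.57, 7.51 and 7.33 times, and RPL22, RPL6 and RPL15 had the narrowest, at 1.98, 2.03 and 2.16 times. The groups with disagreeing libraries set many of these extremes. Over the other 23 groups, 67 genes had their lowest mean with HCl on day 11, and the highest was with IWP2 on day 3 for 30 and with NaHCO3 on day 11 for 29. The median range was then 3.25 times, and RPLP2, RPS12 and RPS16 spanned 5.73, 5.9 and 6.2 times.

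**Figure D2:**
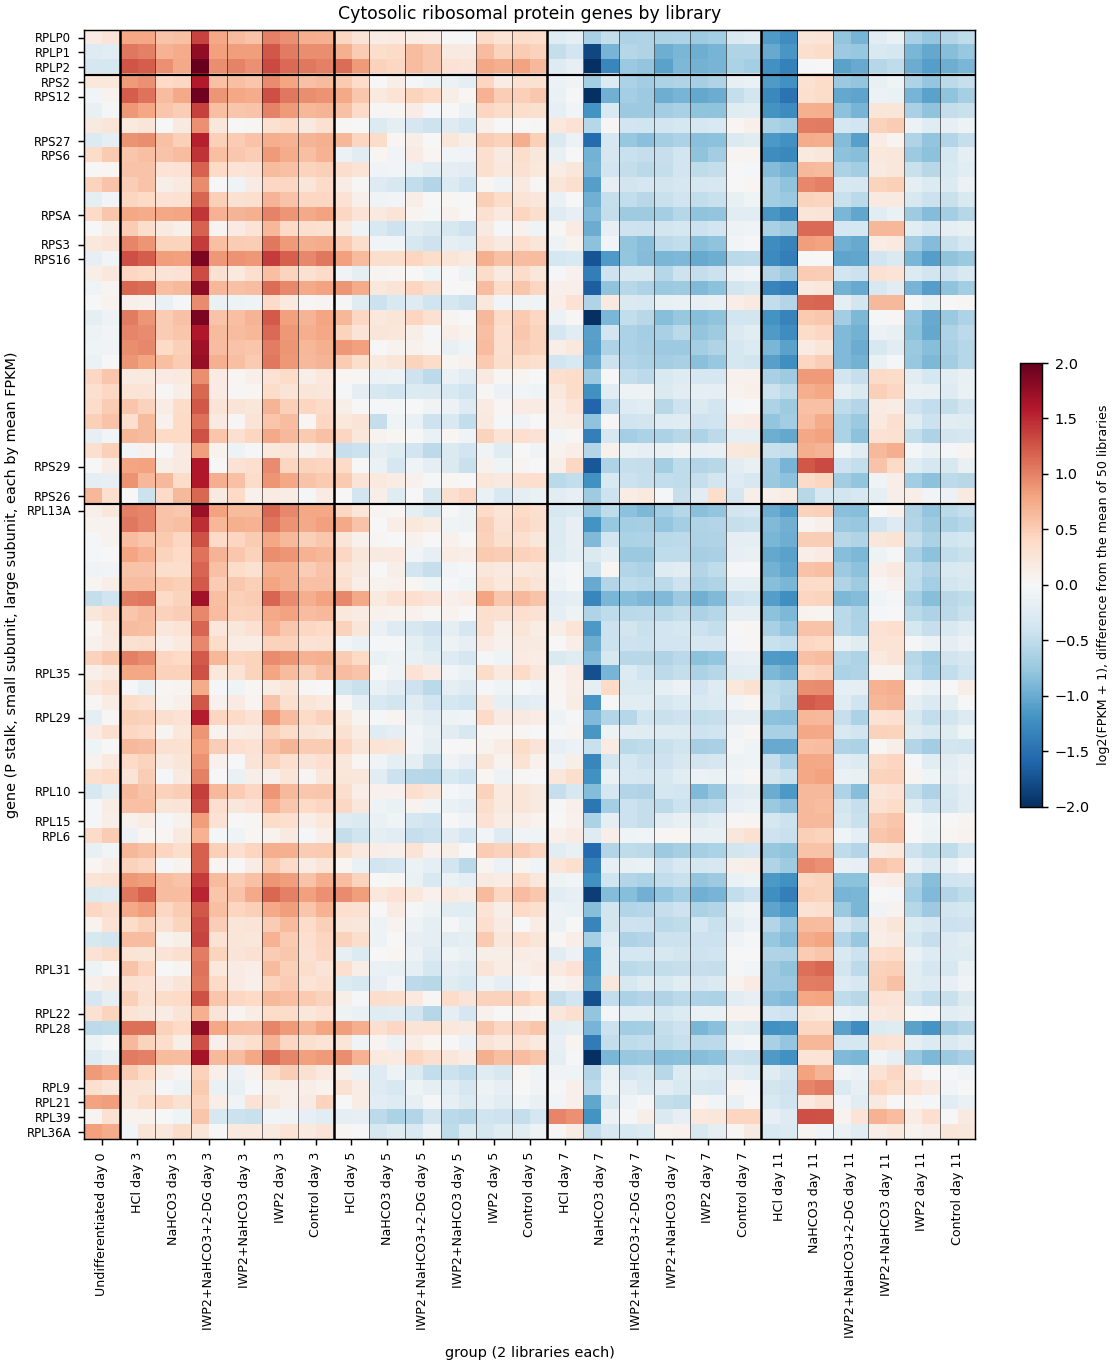
Log2(FPKM + 1) of 75 genes that are not copies (rows: stalk, small subunit and large subunit, each by falling mean FPKM, with some rows labelled) in the 50 libraries (columns, 2 for each group), as the difference from the gene's mean over all libraries, with colours limited at 2 to either side. Most rows share their high and low columns, with low values (blue) in the HCl libraries of day 11 and NaHCO3 replicate 1 of day 7 and high values (red) in IWP2+NaHCO3+2-DG replicate 1 of day 3.

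Changes were tested with the edgeR quasi-likelihood test on counts over all 17286 genes of days 3 and 5 or 18451 genes of days 7, 11 and 0, and a gene is called where its Benjamini-Hochberg adjusted p is under 0.05. FPKM is relative to library totals, whereas fold changes use TMM scaling, which sets the bulk of genes to no change. Scaling by library totals instead moved the median log2 fold change of all genes by −0.22 for NaHCO3 against Control on day 11 and by −0.12 for the same pair on day 7, by −0.11 for IWP2 against Control on day 7, by −0.14 and −0.18 for adding 2-DG on days 3 and 5, and by 0.17 for Control of day 7 against undifferentiated cells. The median of the ribosomal protein genes kept its sign in each of these. Comparisons of a day share their Control or IWP2+NaHCO3 libraries, so their values are given side by side without a test of likeness.

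**Figure D3:**
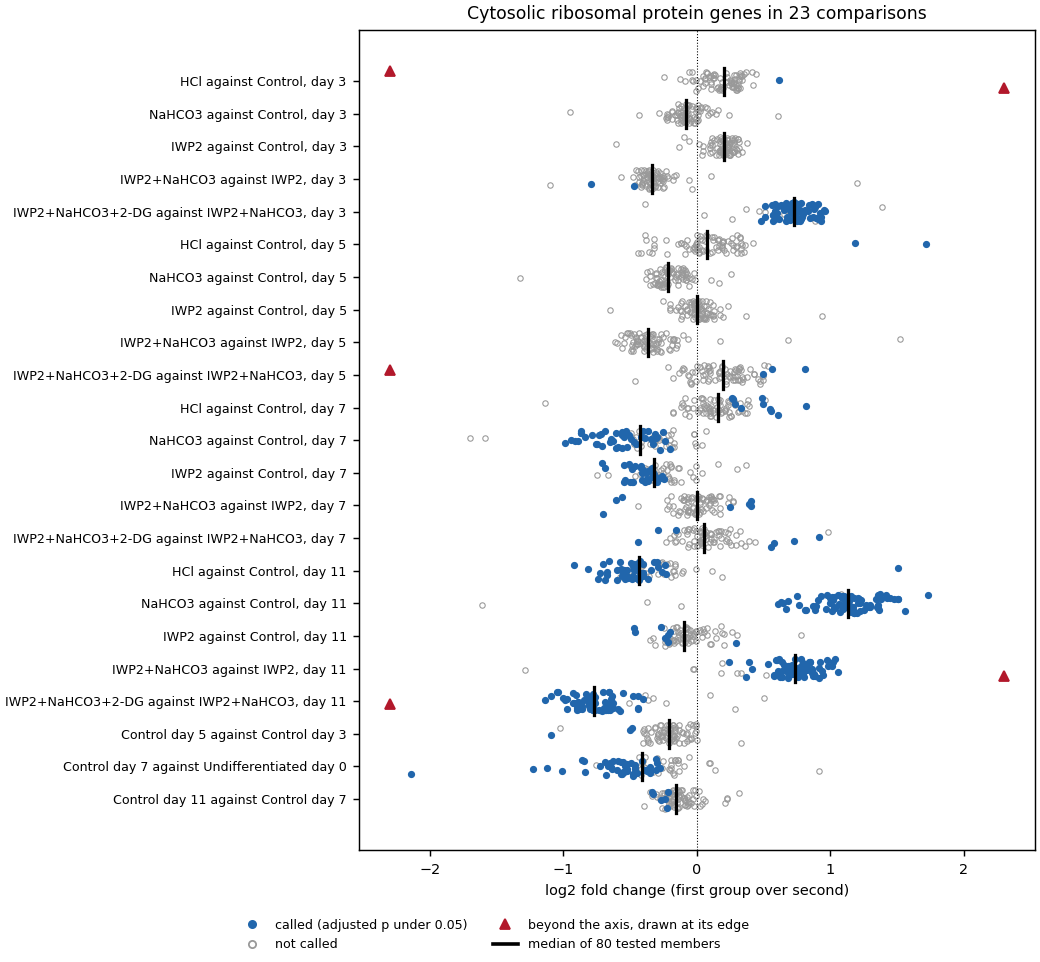
Log2 fold change (x axis, first group over second) of the 80 tested genes in 23 comparisons (rows); filled points passed an adjusted p of 0.05, open points did not, triangles mark 5 values beyond the axis, drawn at its edge, and bars are medians. On day 11 nearly all genes lie to the right for NaHCO3 against Control (median 1.13) and to the left for IWP2+NaHCO3+2-DG against IWP2+NaHCO3 (median −0.77).

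On day 11, the ribosomal protein genes were higher with NaHCO3 almost throughout: 76 of 80 were called higher than in Control and none lower, with a median log2 fold change of 1.13 and quartiles of 1.00 and 1.26. Among all genes tested, 26% were called higher in this comparison. A rise of 2-fold or more was called for 58 of the 80, against 6.7% of all genes. The called genes were 42 of 43 large-subunit genes (median 1.13), 29 of 31 small-subunit genes (median 1.16), all 3 stalk genes and 2 of 3 tested copies. In FPKM, 77 genes were higher in both NaHCO3 libraries than in both Control libraries, against 26.1% of all genes tested, and 3 were lower in both, against 50% of all genes.
RPS29, a small-subunit protein gene at chr14:50043390-50065408, had 141.91 and 149.35 FPKM with NaHCO3, against 47.27 and 53.51 FPKM in Control. Its log2 fold change of 1.73 ± 0.23 (SE, adjusted p = 1.73e-05) was the largest among the 80. RPL31, of the large subunit at chr2:101618177-101640494, had 249.54 and 256.39 FPKM with NaHCO3, against 91.9 and 104.8 FPKM in Control, a change of 1.56 ± 0.20 (adjusted p = 1.31e-05). In both genes the groups lay far apart compared with the gap between libraries of 1 group.
RPL13A, the most abundant large-subunit gene here, had 1058.07 and 1076.99 FPKM with NaHCO3, against 529.22 and 552.5 FPKM in Control (1.18 ± 0.08, adjusted p = 6.28e-14). RPLP0, the stalk base that binds the ribosome, had 553 and 554.94 FPKM with NaHCO3, against 309.92 and 328.14 FPKM in Control (0.99 ± 0.07, adjusted p = 7.79e-13). RPLP1 and RPLP2, the acidic stalk proteins, rose by 1.36 ± 0.17 and 1.14 ± 0.17, and RPSA, a small-subunit protein also known as a laminin receptor, by 1.07 ± 0.09. The smallest called rises were those of RPL6 (0.60 ± 0.08), RPL22 (0.63 ± 0.14) and the copy RPL39L (0.65 ± 0.16).
Among the 4 genes that were not called were RPS10L at −1.61 ± 0.80, RPS26 at −0.38 ± 0.23 and RPL36A at −0.12 ± 0.13. RPS10L rested on 1 and 3 counts with NaHCO3 and 8 and 7 in Control. Of the 63 tested genes with a RefSeq start, the 50 that have the pyrimidine run there had a median change of 1.17 and the 13 without it 1.01, a description with no test.

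The NaHCO3 and Control cultures of day 11 also differed in cell type markers. The 5 cardiac muscle markers (TNNT2, MYH6, MYL7, ACTN2, NKX2-5) summed to 18.4 to 19.3 FPKM with NaHCO3, where 3 of them reached 1 FPKM, and to 491 to 684 FPKM in Control. The 5 stromal markers (COL1A1, COL3A1, LUM, DCN, POSTN) summed to 6340 to 6480 FPKM with NaHCO3 and 2910 FPKM in both Control libraries. The 5 markers of liver-like cells (AFP, APOA1, APOA2, TTR, FGB) summed to 3780 to 4690 FPKM with NaHCO3 and 4220 to 5050 FPKM in Control. The part of these markers' cells in the result was not tested, and in bulk RNA a change in the cells present cannot be told apart from a change of RNA per cell. Other genes with transcripts under 1000 bases had a median change of 0.17, and those of 4000 bases or more −0.21.

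NaHCO3 was also compared in the presence of IWP2. On day 11, 72 of 80 genes were called higher with IWP2+NaHCO3 than with IWP2 alone and none lower, at a median of 0.74; 26.1% of all genes were called higher. Only 5 of the 80 passed a 2-fold rise, against 9.8% of all genes. RPS6, the small-subunit protein phosphorylated by S6 kinase, had 478.82 and 483.78 FPKM with IWP2+NaHCO3, against 250.75 and 234.27 FPKM with IWP2, a change of 1.06 ± 0.12 (adjusted p = 4.11e-07). RPS3, which lines the entry of the messenger RNA channel, had 267.57 and 275.27 FPKM with IWP2+NaHCO3 and 149.25 and 132.35 FPKM with IWP2 (1.01 ± 0.15, adjusted p = 2.6e-05). The genes not called were RPL21, RPL22, RPL36A, RPL39, RPL39L, RPS10L, RPS26 and RPS27L.

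With 2-DG added to IWP2+NaHCO3 the genes were lower on day 11. There 72 of 80 genes were called lower than with IWP2+NaHCO3 and none higher, at a median of −0.77, while 26.8% of all genes were called lower. Of the 80, 6 passed a 2-fold fall, against 11.8% of all genes. RPS3 had 123.7 and 118.93 FPKM with 2-DG, against 267.57 and 275.27 FPKM without it, a change of −1.14 ± 0.15 (adjusted p = 6.57e-06). RPS6 had 232.82 and 227.85 FPKM with 2-DG, against 478.82 and 483.78 FPKM without it (−1.04 ± 0.12, adjusted p = 4.17e-07). RPLP0 fell by 0.65 ± 0.07 and RPSA by 0.78 ± 0.09, whereas RPLP1, at −0.39 ± 0.17 (adjusted p = 0.0702), was not called. The other genes not called were RPL21, RPL22, RPL39, RPL39L, RPS10L, RPS26 and RPS27L. Cardiac muscle markers summed to 4430 to 4830 FPKM with IWP2+NaHCO3+2-DG, 246 to 254 FPKM with IWP2+NaHCO3 and 3300 to 3400 FPKM with IWP2. The stromal markers summed to 314 to 410, 3390 to 3470 and 555 to 614 FPKM in the same order of groups. The liver-like markers summed to 173 to 179 FPKM with IWP2+NaHCO3+2-DG, 4470 to 4760 FPKM with IWP2+NaHCO3 and 157 to 172 FPKM with IWP2. The part of these markers' cells in the results was not tested.

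Many of the genes were lower with HCl on day 11. Compared with Control, 49 of 80 were called lower (27.4% of all genes) and 1 higher (25.3% of all genes), at a median of −0.43. The called genes were 26 of 43 large-subunit genes, 22 of 31 small-subunit genes, RPLP0 and the copy RPS10L. RPS6 had 173.53 and 168.32 FPKM with HCl, against 323.94 and 361.01 FPKM in Control, a change of −0.92 ± 0.12 (adjusted p = 2.21e-06). RPS3 had 100.94 and 95.29 FPKM with HCl, against 177.75 and 188.05 FPKM in Control (−0.81 ± 0.15, adjusted p = 0.000205). Both genes had no overlap between the groups, as did 76 genes in all that were lower in FPKM, against 42.7% of all genes tested. RPS10L, the gene that was higher, had 16 and 22 counts with HCl and 8 and 7 in Control, and DESeq2 did not call it. RPLP1 and RPLP2, at −0.19 ± 0.17 and −0.25 ± 0.17, were not called. Cardiac muscle markers summed to 4840 to 4930 FPKM with HCl and 491 to 684 FPKM in Control, stromal markers to 319 to 331 FPKM with HCl and 2910 FPKM in both Control libraries, and liver-like markers to 232 to 377 FPKM with HCl and 4220 to 5050 FPKM in Control. Their part in the result was not tested.
IWP2 against Control on day 11 gave 7 of 80 genes lower (23.3% of all genes) and 1 higher (22.1% of all genes), at a median of −0.09. This count depends on the fit: fitting day 11 alone called more genes, as given below. The discordant NaHCO3 libraries of day 7 enter the shared spread of all tests of days 7, 11 and 0. Their part in the count was not tested. RPS6, at −0.48 ± 0.12, and RPL28 of the large subunit, at −0.46 ± 0.10, fell most, and RPL9 rose by 0.29 ± 0.10. RPL9 had 13.16 and 12.28 FPKM with IWP2, against 10.35 and 10.74 FPKM in Control.

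On day 7 the NaHCO3 cultures lay on the other side of Control. There 44 of 80 genes were called lower with NaHCO3 and none higher, at a median of −0.43, against 20% of all genes. RPL35, of the large subunit, had 78.81 and 140.53 FPKM with NaHCO3, against 228.67 and 229.86 FPKM in Control (−0.94 ± 0.16, adjusted p = 0.000176). RPL39, also of the large subunit, had 3.04 and 7.6 FPKM with NaHCO3, against 11.48 and 11.49 FPKM in Control (−0.99 ± 0.23, adjusted p = 0.00224). In both genes replicate 1 was the lower of the NaHCO3 libraries. RPLP2 fell by 0.91 ± 0.17 and RPSA by 0.33 ± 0.09, and RPLP0, at −0.17 ± 0.07, was not called. The size of this result depends on the library kept: with replicate 1 of NaHCO3 left out the median was −0.13 with 30 genes lower (16.7% of all genes) and 5 higher (16.4%), and with replicate 2 left out it was −0.81 with 76 lower (20.2%). Cardiac muscle markers summed to 35.1 to 72.2 FPKM with NaHCO3 and 358 to 408 FPKM in Control. Stromal markers summed to 5220 to 5670 FPKM with NaHCO3 and 2170 to 2280 FPKM in Control, and liver-like markers to 995 to 1300 FPKM with NaHCO3 and 1560 to 1580 FPKM in Control. The part of these markers' cells in the result was not tested.
With IWP2, 34 of 80 genes fell on day 7, with none higher and a median of −0.32; 24.1% of all genes were called lower. RPS6 had 236.92 and 255.09 FPKM with IWP2, against 430.07 and 432.2 FPKM in Control (−0.71 ± 0.12, adjusted p = 5.81e-05). RPS3 had 132.7 and 137.26 FPKM with IWP2, against 231.29 and 233.62 FPKM in Control (−0.69 ± 0.15, adjusted p = 0.00107). In FPKM 77 genes were lower in both IWP2 libraries than in both Control libraries, against 44.8% of all genes tested. Cardiac muscle markers summed to 4840 to 5250 FPKM with IWP2 and 358 to 408 FPKM in Control, stromal markers to 300 to 462 FPKM with IWP2 and 2170 to 2280 FPKM in Control, and liver-like markers to 149 to 367 FPKM with IWP2 and 1560 to 1580 FPKM in Control. Their part in the result was not tested.
With HCl, 10 of 80 genes rose on day 7 (23.1% of all genes) and none fell, among them RPL39L (0.82 ± 0.15), RPL39 (0.61 ± 0.21), RPS27L (0.55 ± 0.19) and RPLP2 (0.49 ± 0.17). Adding NaHCO3 to IWP2 gave 4 genes higher (24.6% of all genes) and 3 lower (24%), with RPL10 at 0.40 ± 0.12 and RPL36A at 0.40 ± 0.14 above and RPL39L at −0.70 ± 0.16 and RPL21 at −0.61 ± 0.16 below. Adding 2-DG to IWP2+NaHCO3 also gave 4 higher (25% of all genes) and 3 lower (22.7%). RPL39L (0.91 ± 0.16) and RPS27L (0.73 ± 0.19) led the rises and RPL36A (−0.44 ± 0.14) and RPL7A (−0.29 ± 0.09) the falls. The median was 0.05 for adding 2-DG and −0.03 with library totals as the scale, so no direction of the whole group is given.

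In the differentiation control, many ribosomal protein genes were lower on day 7 than in undifferentiated cells. Compared with day 0, 46 of 80 genes were called lower in Control of day 7 and none higher, at a median of −0.41, while 34.4% of all genes were called lower. A fall of 2-fold or more was called for 4 genes, against 15.6% of all genes. These were RPL39L (−2.14 ± 0.15) and the large-subunit genes RPL17 (−1.23 ± 0.10), RPL21 and RPL36A. RPL17 had 18.81 and 17.96 FPKM in Control of day 7, against 39.21 and 37.33 FPKM on day 0. RPLP0 had 381.15 and 395.23 FPKM in Control of day 7, against 521.35 and 556.38 FPKM on day 0 (−0.64 ± 0.07, adjusted p = 2.73e-09). The count of 46 depends on the scaling: with library totals in place of TMM fewer genes were called, as given below. Control of day 11 had 6 genes lower than Control of day 7 (15.6% of all genes) and none higher: RPL3, RPL4, RPL28, RPLP0, RPS2 and RPSA. RPSA had 166.89 and 180.35 FPKM on day 11, against 228.37 and 230.82 FPKM on day 7 (−0.33 ± 0.09, adjusted p = 0.00385).

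On days 3 and 5 few genes were called, apart from the comparison that holds the discordant libraries. With 2-DG on day 3, 68 of 80 were called higher than with IWP2+NaHCO3 at a median of 0.73, and none lower, against 9.68% of all genes. RPL28 had 271.6 and 134.97 FPKM with 2-DG, against 118.85 and 117.87 FPKM without it (0.96 ± 0.21, adjusted p = 0.0055). RPL29, of the large subunit, had 760.08 and 344.78 FPKM with 2-DG, against 332.07 and 313.9 FPKM without it (0.95 ± 0.24, adjusted p = 0.0102). The size of this change depends on the library kept: the median was 0.11 without the first 2-DG library and 1.14 without the second. Fitting day 3 alone called 0 genes in this comparison, so the count of 68 also depends on the fit. Of the other comparisons of day 3, HCl gave 2 genes higher (15.2% of all genes), among them RPS27L at 0.62 ± 0.17. Adding NaHCO3 to IWP2 gave 2 genes lower (3.74% of all genes), RPL39L at −0.79 ± 0.23 and RPL17 at −0.47 ± 0.14. NaHCO3 against Control (12.7% of all genes called either way) and IWP2 against Control (1.17%) gave 0 called genes by edgeR, 0 at an unadjusted p under 0.05 and 0 by DESeq2.
On day 5, HCl gave 2 genes higher (20.8% of all genes), both of them copies described below. Adding 2-DG to IWP2+NaHCO3 gave 3 higher (19.2% of all genes) and 1 lower (20.3%): RPL39L (0.81 ± 0.23), RPLP1 (0.56 ± 0.21) and RPL10 rose, and RPS10L fell with 1 and 0 counts against 13 and 13. RPLP1 had 451.51 and 428.04 FPKM with 2-DG, against 332.38 and 331.77 FPKM without it. NaHCO3 against Control (15.9% of all genes called either way) and IWP2 against Control (15.3%) gave 0 called genes by edgeR, 0 at an unadjusted p under 0.05 and 0 by DESeq2. Adding NaHCO3 to IWP2 (13% of all genes called either way) gave 0 called genes by edgeR, 28 at an unadjusted p under 0.05 and 5 by DESeq2. Control of day 5 had 3 genes lower than Control of day 3 (18.4% of all genes): RPL39L (−1.09 ± 0.23), RPL12 (−0.50 ± 0.15) and RPL36A.

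The spread between the 2-DG libraries of day 3 entered the error of every gene of this table, because all groups share 1 estimate. Fitted without both of those libraries, more genes were called. Adding NaHCO3 to IWP2 then gave 67 genes lower on day 3 at a median of −0.34 (10.3% of all genes) and 65 lower on day 5 at a median of −0.39 (12.2%). NaHCO3 against Control gave 41 lower on day 5 (13.3%) at a median of −0.21. HCl gave 40 higher on day 3 (21.6%) at a median of 0.20, and IWP2 gave 21 higher on day 3 (1.89%) at a median of 0.21. Control of day 5 had 47 genes lower than Control of day 3 (24.6%). Adding 2-DG gave 40 called genes on day 5, of which 36 were higher (24.7% of all genes). The shares of counts overlapped there, at 5.44% and 5.08% with 2-DG and 5.28% and 5.07% without it. Scaling by library totals lowered the median of all genes in that comparison, as given above, so no direction of the whole group is given. In FPKM, with no fit, 74 of the 80 genes were lower in both IWP2+NaHCO3 libraries than in both IWP2 libraries on day 3, against 27.4% of all genes tested, and 74 were lower on day 5, against 25.7%.

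With HCl on day 5 the 2 genes called in the fit of all libraries were both copies, RPS27L and RPL39L, and without both 2-DG libraries of day 3 the fit called 26 genes higher (27.1% of all genes) and 10 lower (25.7%). RPS27L, a copy of RPS27 known as a target of p53, had 21.07 and 21.14 FPKM with HCl on day 5, against 6.44 and 6.75 FPKM in Control, a change of 1.72 ± 0.17 (adjusted p = 1.1e-07). RPS27 itself had 658.29 and 559.18 FPKM with HCl, against 683.59 and 574.77 FPKM in Control (−0.01 ± 0.23), with the groups overlapping. In the same comparison 14 of 19 p53 target genes rose (20.8% of all genes) and 1 fell. Their median was 1.0, against a median of −0.02 over all genes. CDKN1A, an inhibitor of the cell cycle, rose by 6.16 ± 0.29 and GDF15, a stress cytokine, by 5.87 ± 0.27. Whether p53 had a part in the change of RPS27L was not tested.
RPL39L, a copy of RPL39, had 11.7 and 12.18 FPKM in Control of day 7, against 48.43 and 45.41 FPKM in undifferentiated cells. With HCl on day 5 it had 37.3 and 36.85 FPKM, against 17.69 and 15.76 FPKM in Control (1.19 ± 0.23, adjusted p = 0.000277). RPL39, at 7.19 and 7.33 FPKM with HCl and 5.64 and 6.28 FPKM in Control, was not called (0.33 ± 0.22). On day 11, RPS27L had 17.9 and 19 FPKM with NaHCO3, against 10.11 and 11.57 FPKM in Control (0.97 ± 0.18), and RPS27 had 692.37 and 684.44 FPKM with NaHCO3, against 275.33 and 302.62 FPKM in Control (1.45 ± 0.24), so both rose there.

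**Figure D4:**
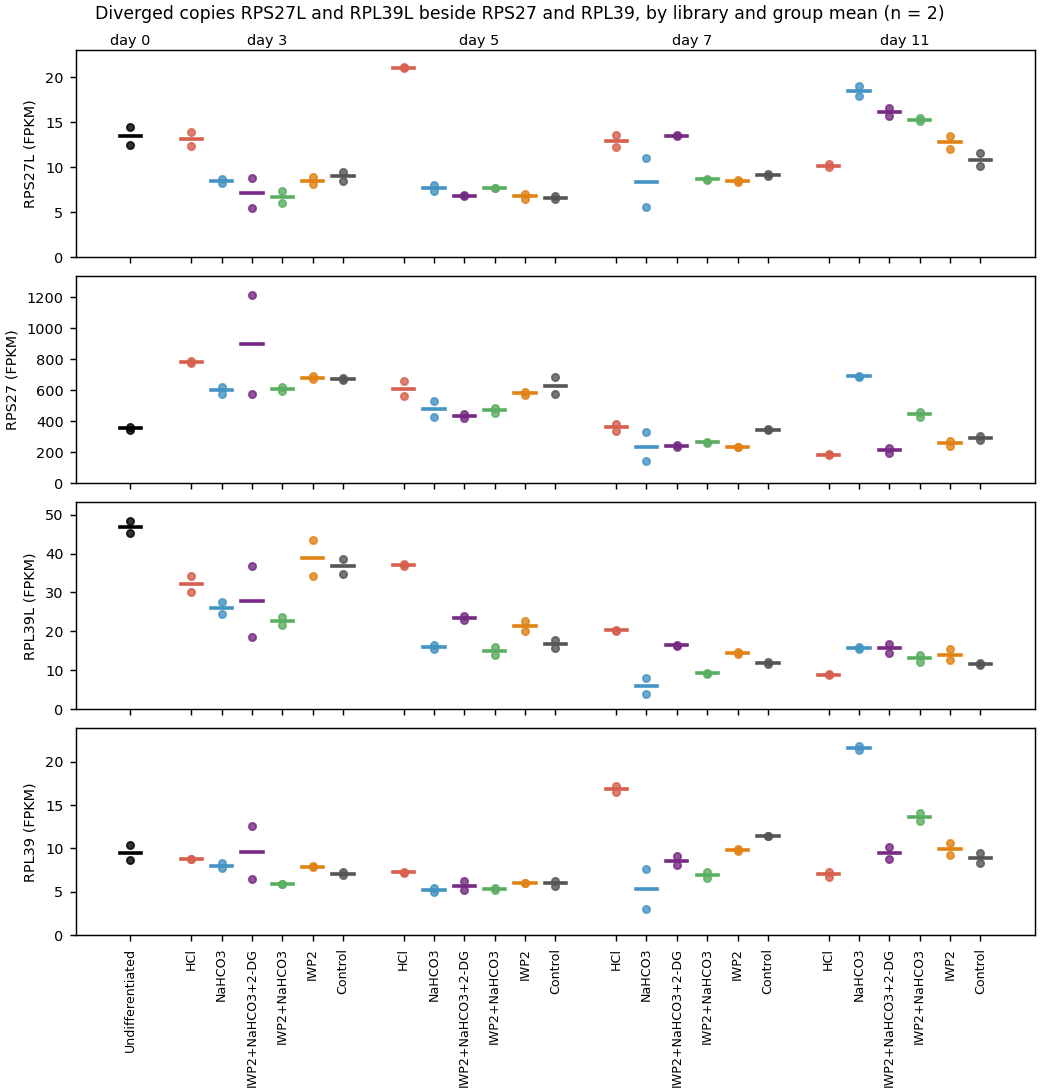
FPKM (y axis, from 0) of the copies RPS27L and RPL39L and of RPS27 and RPL39 in every library, by treatment within each day (x axis); points are libraries and bars are means of 2. RPS27L stands highest with HCl on day 5 (21.07 and 21.14 FPKM) and RPL39L in undifferentiated cells (48.43 and 45.41 FPKM), where RPS27 and RPL39 do not.

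Other genes of ribosome supply were counted from lists. With NaHCO3 on day 11, 4806 of 18451 genes were called higher than in Control and 4886 lower. Noncoding hosts of small nucleolar RNAs that carry the same TOP motif had 7 of 8 higher and 0 lower at a median of 1.31, led by EPB41L4A-AS1 (1.98 ± 0.10), ZFAS1 (1.75 ± 0.20) and GAS5 (1.45 ± 0.17). Translation factors had 14 of 17 higher and 2 lower at a median of 0.69, with EIF3E (1.33 ± 0.07), a subunit of initiation factor eIF3, TPT1 (1.21 ± 0.08) and the elongation factor EEF1A1 (0.98 ± 0.07). Ribosomal proteins outside the naming rule had 6 of 7 higher, among them RPL22L1 (1.52 ± 0.17) and FAU (1.26 ± 0.19), which encodes a small-subunit protein fused to a ubiquitin-like one. Ribosome biogenesis factors had 6 of 35 higher and 18 lower at a median of −0.25, with RRS1 (−1.34 ± 0.14) and RRP9 (−1.15 ± 0.12) lower and NOB1 (0.99 ± 0.08) higher. Mitochondrial ribosomal proteins had 47 of 75 higher and 1 lower at a median of 0.33. MYC, a regulator of ribosome genes, rose by 1.59 ± 0.14 and MYCN fell by 1.79 ± 0.11.
Mitochondrial ribosomal proteins were counted in the comparisons where many cytosolic ones fell; the difference between the lists was not tested. With HCl on day 11, 55 of 75 mitochondrial ribosomal proteins were higher than in Control (25.3% of all genes) and 1 lower (27.4%). Their median was 0.46, with MRPL15 at 1.39 ± 0.09. With IWP2 on day 7, 49 of 75 were higher (23.3% of all genes) and 0 lower at a median of 0.35. With 2-DG added to IWP2+NaHCO3 on day 11, 30 were higher and 7 lower (26.8% of all genes were lower). Their median was 0.15, against −0.02 over all genes. The share of all genes called higher is not given there, so the 30 are not read as a rise of the list. With NaHCO3 on day 7, 2 were higher and 29 lower (20% of all genes were lower) at a median of −0.22. TOP-class hosts had 0 of 8 higher and 5 lower both with HCl (median −0.43; ZFAS1 −1.12 ± 0.21) and after adding 2-DG (median −0.47; ZFAS1 −1.09 ± 0.20) on day 11.
In Control of day 7 against undifferentiated cells, all 35 biogenesis factors were lower (34.4% of all genes) at a median of −1.1. Among them was DDX21 (−2.13 ± 0.07), a helicase of the nucleolus. Of 75 mitochondrial ribosomal proteins, 62 were lower and 4 higher. MYC fell by 3.46 ± 0.14 there. With 2-DG on day 5, 26 of 35 biogenesis factors were higher than with IWP2+NaHCO3 (19.2% of all genes) and 0 lower (20.3%). Their median was 0.60, led by RRP12 (1.54 ± 0.11), while the median of the 80 cytosolic ribosomal protein genes was 0.19.

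**Figure D5:**
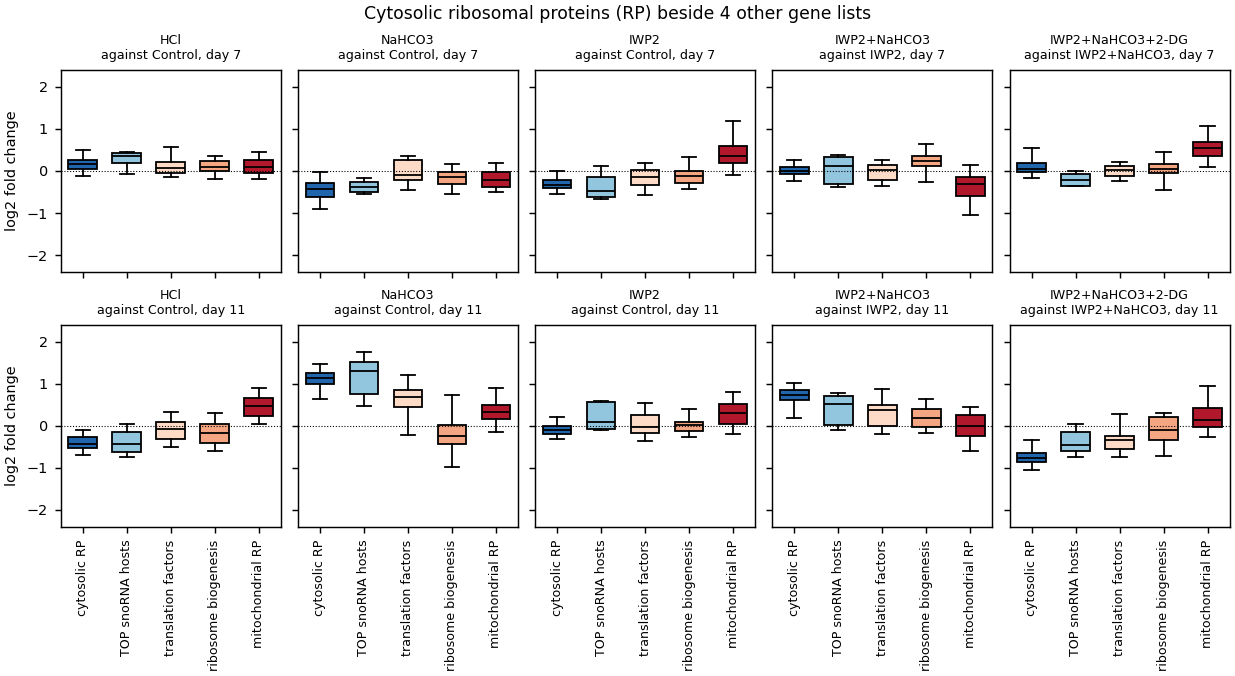
Log2 fold change (y axis, first group over second) of the genes of 5 lists (x axis; RP stands for ribosomal proteins) in the treatment comparisons of days 7 (upper row) and 11 (lower row); boxes span the quartiles, lines are medians and whiskers leave out 5% of the genes at each end. With NaHCO3 on day 11 the medians of TOP-class hosts (1.31) and translation factors (0.69) share the sign of the cytosolic ribosomal protein genes (1.13) and biogenesis factors (−0.25) do not; with HCl on day 11 mitochondrial ribosomal proteins (0.46) have the opposite sign.

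Whether a treatment's effect differed between days, or with and without IWP2, was tested as an interaction. The effect of HCl was lower on day 11 than on day 7 for 54 of 80 genes (21.9% of all genes) and higher for 1 (19.4%). The effect of 2-DG was lower on day 11 than on day 7 for 69 genes (16.4% of all genes), at a median difference of −0.82, with RPS12 at −1.22 ± 0.29. It was lower on day 5 than on day 3 for 13 (11%), at a median difference of −0.535. The day 3 effect holds the discordant 2-DG libraries, and this median changed sign without replicate 1 of 2-DG on day 3. The effect of NaHCO3 was higher on day 11 than on day 7 for 77 genes (16.4% of all genes) at a median difference of 1.54, with RPS29 at 2.51 ± 0.33 and RPL39 at 2.46 ± 0.31, and in the presence of IWP2 for 60 genes (14.3%) at a median difference of 0.73. These last 2 interactions were added after the values had been seen. The one without IWP2 holds the discordant NaHCO3 libraries of day 7, so the size of its differences depends on the library kept.
With IWP2, the effect of NaHCO3 was higher than without it for 30 genes on day 7 (19.5% of all genes) and lower for 23 on day 11 (19%), where RPL9 differed by −1.06 ± 0.14. The interaction of day 7 also holds the discordant NaHCO3 libraries. On days 3 (0.498% of all genes called either way) and 5 (5.73%) edgeR called 0 genes for this interaction, with 1 and 0 at an unadjusted p under 0.05 and 0 by DESeq2. The effect of IWP2 differed between days 7 and 11 for RPL9 alone (0.56 ± 0.14; 5.41% of all genes were higher), and between days 3 and 5 for 0 genes by edgeR, 1 at an unadjusted p under 0.05 and 0 by DESeq2 (7.22% of all genes called either way). The effect of HCl was higher on day 5 than on day 3 for RPL39L and RPS27L (14.5% of all genes) and lower for 1 gene (13.4%).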

How the data were processed

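The authors deposited counts and FPKM per library for Ensembl genes, in a table of days 3 and 5 (24 libraries) and a table of days 7, 11 and 0 (26 libraries). Per the labels' protocols, RNAiso Plus served for RNA extraction and the VAHTS Universal V8 kit for library preparation. The submitters' processing notes name cutadapt 1.9.1, HISAT2 2.0.1, HTSeq 0.6.1 and GRCh37. The deposited FPKM were recomputed from counts, exonic sizes and library totals (median ratio 1). Strand use in counting is not given in the sources used here.

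Genes reaching 1 FPKM in 2 or more libraries of a table were tested on the deposited counts with edgeR 4.0.16 in R 4.3.3: robust quasi-likelihood F test, TMM scaling, 1 mean per group and 1 estimate of spread over all libraries of the table (biological coefficient of variation 0.119 for days 3 and 5, 0.0669 for days 7, 11 and 0), with Benjamini-Hochberg adjustment over all genes tested. The standard error is the log2 fold change divided by the root of F. The test was tried on simulated counts with known changes. DESeq2 1.42.0, library totals, TMM without the ribosomal protein genes, no low-value filter, a replicate block, fits per day and leaving out libraries were alternatives. Transcript lengths come from GENCODE v29 (81 of 83 genes, median 691 bases), for genes with a mean count of at least 200.

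Genes were named by role: the copies and their counterparts, stalk genes and RPSA, the highest and lowest, and for each comparison those of largest called change. Some genes that the rule finds are counted but not reported here by name. The genes and lists were chosen with earlier results of these data known. No 2 libraries of a group agreed within sampling noise (chi-square per gene 1.97 to 121).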

Additional observations from a re-analysis of the deposited data

Results flagged for a closer look

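By an edgeR interaction test (adjusted p under 0.05), several treatment effects on the 80 tested genes were unequal between days, or with and without IWP2. For HCl, 55 genes had unequal effects on day 11 and day 7 (21.9% of all genes were lower and 19.4% higher). On day 5 and day 3 this was so of 3 genes (13.4% of all genes were lower and 14.5% higher). For 2-DG, 69 genes had unequal effects on day 11 and day 7 (16.4% of all genes were lower). On day 5 and day 3 this was so of 13 genes (11% of all genes were lower), where the day 3 effect holds the discordant 2-DG libraries. For IWP2 this was so of 1 gene, RPL9, on days 11 and 7 (5.41% of all genes were higher). For NaHCO3 the effect with IWP2 was unlike that without it in 30 genes on day 7 (19.5% of all genes were higher) and in 23 on day 11 (19% were lower). Day 11 was unlike day 7 in 77 genes for NaHCO3 without IWP2 (16.4% of all genes were higher) and in 60 genes for NaHCO3 with it (14.3%). Both of these tests of day 11 and day 7 were added after the values had been seen. The day 7 effect of NaHCO3 without IWP2 holds the discordant NaHCO3 libraries. Cardiac and stromal markers differ between the groups in most of these comparisons, and their part in the differences was not tested.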

How the results depend on the processing

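Numbers here count the ribosomal protein genes called, out of 80, unless said otherwise. For NaHCO3 against Control on day 11 the count was 76 with every single library left out and stayed within 1.5 times of 76 under all other settings. Without both 2-DG libraries of day 3, chosen as an alternative because their spread enters all tests of days 3 and 5, the counts became 40 for HCl, 11 for NaHCO3 and 21 for IWP2 against Control on day 3, 67 for IWP2+NaHCO3 against IWP2 on day 3, 36 for HCl, 41 for NaHCO3 and 3 for IWP2 against Control on day 5, 66 for IWP2+NaHCO3 against IWP2 and 40 for adding 2-DG on day 5, and 47 for Control of day 5 against day 3. For the interactions it gave 18 (HCl, day 5 minus day 3), 11 (IWP2, day 5 minus day 3), and 3 and 6 (NaHCO3 with minus without IWP2, days 3 and 5).

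Fitting each day alone gave 1 for HCl, 0 for IWP2+NaHCO3 against IWP2 and 0 for adding 2-DG on day 3. It gave 33 for HCl, 45 for NaHCO3, 4 for IWP2, 68 for IWP2+NaHCO3 against IWP2 and 42 for adding 2-DG on day 5. It gave 4 for HCl and 24 for NaHCO3 on day 7, and 28 for IWP2 on day 11.

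With no filter on low values the counts were 9 for HCl and 31 for IWP2+NaHCO3 against IWP2 on day 3, 20 for HCl, 3 for NaHCO3, 1 for IWP2, 50 for IWP2+NaHCO3 against IWP2 and 25 for adding 2-DG on day 5, 18 for IWP2 on day 11, 24 for Control of day 5 against day 3 and 15 for day 11 against day 7. For interactions they were 5 (IWP2, day 11 minus day 7), 45 (2-DG, day 5 minus day 3) and 1 (NaHCO3 with minus without IWP2, day 3). With library totals in place of TMM they were 5 and 2 for IWP2+NaHCO3 against IWP2 on days 3 and 5, 7 and 6 for HCl on days 5 and 7, 13 for IWP2 on day 11, and 9, 27 and 13 for Control of day 5 against 3, 7 against 0 and 11 against 7. For interactions they were 5 (IWP2, day 11 minus day 7), and 47 and 9 (NaHCO3 with minus without IWP2, days 7 and 11). TMM factors without the ribosomal protein genes gave 1 for IWP2+NaHCO3 against IWP2 on day 3. DESeq2 gave 5 and 5 for that comparison on days 3 and 5, 2 for the IWP2 interaction of days 11 and 7, and 20 for the 2-DG interaction of days 5 and 3. The cause of these differences was not tested.

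Replicate numbers were shared between groups, and same-numbered libraries deviated together weakly at most (correlations −0.13 to 0.29, median 0.002, over 0.1 for 6 of 23 comparisons). The highest were on days 3 and 5, at 0.29 for HCl against Control on day 3 and 0.18 for IWP2 against Control on day 5. The lowest, −0.13, was also on those days, for NaHCO3 against Control on day 5 and for Control of day 5 against day 3. The replicate block changed the count by over 1.5 times for IWP2+NaHCO3 against IWP2, to 4 on day 3 and 1 on day 5.

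Leaving out 1 library at a time gave 0 to 2 for HCl, 0 to 1 for IWP2+NaHCO3 against IWP2 and 8 to 77 for adding 2-DG on day 3, and 1 to 2 for adding 2-DG on day 5. On day 7 it gave 2 to 5 for HCl, 29 to 76 for NaHCO3, 4 to 7 for IWP2+NaHCO3 against IWP2 and 4 to 6 for adding 2-DG. On day 11 it gave 30 to 41 for HCl and 3 to 9 for IWP2. Over time it gave 1 to 3 for Control of day 5 against 3, 28 to 42 for 7 against 0 and 0 to 6 for 11 against 7. For interactions it gave 34 to 52 (HCl, day 11 minus 7), 1 to 3 (IWP2, day 11 minus 7), 3 to 75 and 40 to 59 (2-DG, day 5 minus 3 and 11 minus 7), 19 to 74 and 7 to 20 (NaHCO3 with minus without IWP2, days 7 and 11), and 39 to 48 (NaHCO3 with IWP2, day 11 minus 7). The fit without a library assumes that the lone library left in its group varies like the other groups. The median log2 fold change changed sign for the HCl interaction of days 5 and 3 (range −0.203 to 0.006), at 0.006 without HCl day 5 replicate 2, and for the 2-DG interaction of days 5 and 3 (range −0.96 to 0.057), at 0.057 without 2-DG day 3 replicate 1.

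Of 1346 values for named genes under these alternatives, 1138 kept their call and 208 kept their direction but lost it; none changed direction. With 2 libraries a group, changes smaller than the spread of these libraries could not be called, and genes under 3 counts a library could not be measured.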
